A study of Mus musculus with 4 samples.

Results

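Peli3, Plek2, Aqp8, Srgn, Hkdc1, Pth1r and Stra6 are 7 mouse genes whose signal on the array of the induced pluripotent stem (iPS) cell line iPS-J lay far above that of the other iPS line, iPS-OSH, and of embryonic stem cells (ESC). They were chosen by these measured values, so their iPS-J signal and its distance from iPS-OSH and ESC are given as a description. Their probes were found by gene name among all probes that are not controls. All 7 genes were on the array, with 8 probes of 55681, and they are 7 of 35157 genes with a value.

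RNA of 4 cell populations was hybridized to 1-colour Agilent arrays, 1 array for each population. iPS-OSH and iPS-J are iPS lines of C57BL/6 background, ESC had the 129SV background, and mouse embryonic fibroblasts (MEF) were C57BL/6. Both iPS lines and ESC were grown in DMEM with 15% heat-inactivated serum, 2-Me and the cytokine LIF, and MEF in DMEM with 10% serum and antibiotics, without LIF named. The reprogramming factors, the number of clones, the passage and the age of the embryos are not given in the sources used here. An iPS line is derived from somatic cells that were reprogrammed to resemble ESC, which come from the early embryo. MEF are fibroblasts, the matrix-making cells of connective tissue.

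The genes have no single pathway in common. Stra6 is the cell surface receptor that takes up retinol from its plasma carrier, and Pth1r is the G protein-coupled receptor for parathyroid hormone and its related protein. Aqp8 is a water channel, and Hkdc1 belongs to the hexokinases, which phosphorylate glucose. Peli3 is a ubiquitin ligase of the Pellino family, known from Toll-like receptor signalling. Plek2 is a relative of the blood cell protein pleckstrin with a role in the actin cytoskeleton, and Srgn encodes serglycin, the core protein of a chondroitin sulfate or heparin proteoglycan stored in secretory granules. Retinol uptake, the parathyroid hormone receptor and secreted proteoglycans are known from many tissues, and Pth1r is a textbook gene of the extraembryonic endoderm, the early layer that lines the yolk sac.

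Since each population has 1 array, the differences below stand without replicates or p-values. The precision is limited by the number of arrays. Between 67.0% (iPS-J) and 81.7% (MEF) of 59305 spots that are not controls were well above background. The 75th percentile of the processed signal, by which each array was scaled, ran from 1241.3 on iPS-J to 1764.8 on MEF. Probes printed 10 times had a median log2 SD between spots of 0.08 to 0.16, and the 90th percentile of that SD was 0.46 to 0.87. This gives a difference between iPS-J and iPS-OSH a technical SD of 0.14, between iPS-J and ESC 0.20 and between iPS-J and MEF 0.18, for spot noise alone. All arrays lay on 1 slide. The scan times in the file headers differed, and each distinct time is called a session here. iPS-OSH and iPS-J shared session 2, and MEF (session 1) and ESC (session 3) had sessions of their own. Scan session cannot be told apart from population in any comparison with MEF or ESC, nor strain from cell type in any with ESC. All 14 pluripotency markers, Pou5f1, Sox2 and Nanog among them, were well above background on the 3 pluripotent arrays. All 14 were at least 2-fold higher in iPS-J than in MEF, against 16.2% of 30660 genes compared. Klf4 stayed past 2-fold there under 7 of 9 alternatives, with 0.59 as its lowest value. Against ESC, 1 marker was at least 2-fold higher in iPS-J (Utf1 at 1.19) and 2 lower (Zfp42 at -4.28 and Klf2 at -1.57). Zfp42 was low in iPS-OSH too, at -4.83 from ESC. Against iPS-OSH, 1 was higher in iPS-J (Tdgf1 at 1.62) and 0 lower.

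Stra6, the retinol receptor, gave processed signals of 126 in iPS-OSH, 738 in iPS-J, 237 in ESC and 165 in MEF. The signal was lowest in iPS-OSH and close to it in MEF, and iPS-J stood above the other arrays. The log2 difference of the scaled signal was 2.88 from iPS-OSH (7.38-fold) and 1.71 from ESC (3.27-fold). This is the smallest excess over ESC among the 7 genes and, with Pth1r, the smallest over iPS-OSH. The probe lies on mm9 chromosome 9, positions 58001701 to 58001760, plus strand. Probe coordinates are those of the deposited files, and no annotation of mm9 was used here to place them in an exon, intron or UTR.

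Pth1r had signals of 890 in iPS-OSH, 5166 in iPS-J, 716 in ESC and 3352 in MEF. It is the gene of the set with a high signal in MEF as well, and the remaining pluripotent arrays were alike and low. iPS-J was 2.87 log2 units above iPS-OSH (7.31-fold), 2.93 above ESC (7.6-fold) and 1.13 above MEF (2.19-fold). The probe (chromosome 9, positions 110624846 to 110624905, minus strand) is shown because every Pth1r value rests on it, as printed on the array:
Pth1r probe: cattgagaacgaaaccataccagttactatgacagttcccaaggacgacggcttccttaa

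Aqp8, the water channel, was measured by a pair of probes at different places of the gene. The brighter probe (chromosome 7, positions 130611453 to 130611512, plus strand) had signals of 321 in iPS-OSH, 11683 in iPS-J, 1461 in ESC and 428 in MEF. The dimmer probe (positions 130606210 to 130606269) had 812 in iPS-J and 103 in ESC, and its 18.9 in iPS-OSH and 37.2 in MEF were not well above background. Both probes put iPS-J highest and ESC next. The excess over ESC was 3.07 log2 units (8.42-fold) by the brighter and 3.06 (8.34-fold) by the dimmer probe, which differ by less than the spot noise. Over iPS-OSH it was 5.52 (45.9-fold) by the brighter probe and at least 5.53 by the dimmer one. "At least" marks a lower bound, taken where a probe was not well above background on 1 of the arrays: the dim value is then the array's lowest signal well above background, or the probe's own if higher. Aqp8 is the only gene of the 7 with a second probe. Both probes were read on the same arrays, and both were among the values that chose the gene. Their likeness is therefore a description and no independent check. The sequence of the dimmer probe is given here:
Aqp8 dimmer probe: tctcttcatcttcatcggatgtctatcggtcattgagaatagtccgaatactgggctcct

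Hkdc1, the hexokinase domain protein, had signals of 191 in iPS-OSH, 5240 in iPS-J, 646 in ESC and 87.2 in MEF. All 4 values were well above background and well spread, with iPS-J apart from the rest. iPS-J was 5.11 log2 units above iPS-OSH (34.5-fold) and 3.09 above ESC (8.54-fold). The probe lies on chromosome 10, positions 61845922 to 61845981, minus strand.

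Peli3, the ubiquitin ligase, had signals of 170 in iPS-OSH, 12605 in iPS-J, 164 in ESC and 47.5 in MEF. The iPS-OSH and ESC arrays were close together, and iPS-J stood far above both. The excess was 6.54 log2 units over iPS-OSH (93.3-fold) and 6.34 over ESC (81.1-fold), the largest of the 7 genes in both comparisons. The probe lies on chromosome 19, positions 4931916 to 4931975, minus strand.

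Plek2, the pleckstrin relative, had signals of 181 in iPS-OSH, 5934 in iPS-J, 299 in ESC and 22.3 in MEF, of which the MEF signal was not well above background. iPS-J was 5.37 log2 units above iPS-OSH (41.4-fold) and 4.39 above ESC (20.9-fold). Only for this gene and the dimmer Aqp8 probe did MEF give no measured level. The probe (chromosome 12, positions 79990231 to 79990290, minus strand) carries the bound discussed below and reads:
Plek2 probe: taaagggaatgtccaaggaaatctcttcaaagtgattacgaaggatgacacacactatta

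Srgn, serglycin, had signals of 1240 in iPS-OSH, 39891 in iPS-J, 3799 in ESC and 867 in MEF. It was well above background on every array, with iPS-J apart from the other values. iPS-J was 5.34 log2 units above iPS-OSH (40.5-fold) and 3.47 above ESC (11.1-fold). The probe lies on chromosome 10, positions 61957432 to 61957491, minus strand.

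**Figure D1:**
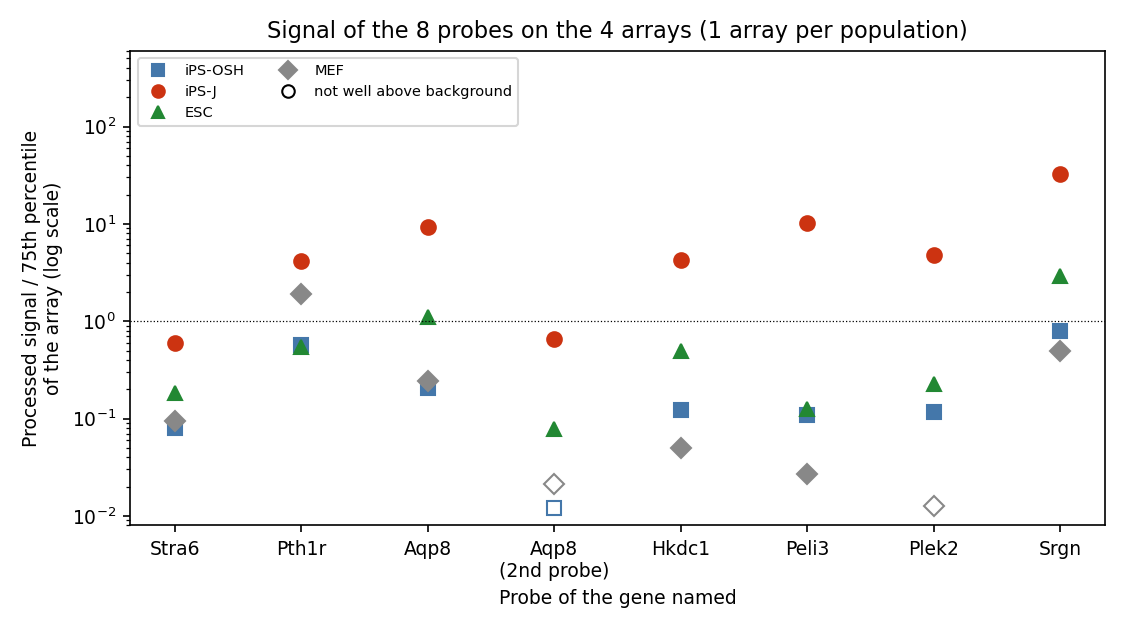
Processed signal of each of the 8 probes divided by the 75th percentile of its array (log axis), 1 symbol per array, with open symbols for values not well above background. iPS-J (circles) is the highest symbol for every probe, and MEF (diamonds) comes second for Pth1r alone; symbols of different probes are not comparable in height.

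By the choice of the genes, 7 of 7 were at least 2-fold higher in iPS-J than in iPS-OSH and 7 of 7 than in ESC. Over all genes compared, 7.36% of 29242 were as much higher than in iPS-OSH and 5.5% of 29583 than in ESC. Nothing is read from these counts, since the excess chose the genes. The median difference of the 7 genes was 5.34 log2 units from iPS-OSH (0.00 over all genes) and 3.09 from ESC (-0.21 over all genes). The genes differed in what they shared between the other pluripotent arrays. The excess over iPS-OSH was larger than that over ESC by more than the spot noise for Stra6, Aqp8, Hkdc1, Plek2 and Srgn. For Pth1r and Peli3 both differences agreed within or near the spot noise.

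iPS-J was also above MEF, where it had not been used to choose the genes, although the high iPS-J value enters this comparison too. The difference was at least 8.56 log2 units for Plek2 (at least 378-fold), 8.56 for Peli3 (377-fold), 6.42 for Hkdc1 (85.4-fold), 6.03 for Srgn (65.4-fold), 5.28 for Aqp8 (38.8-fold), 2.67 for Stra6 (6.35-fold) and 1.13 for Pth1r. All 7 were at least 2-fold higher, against 16.2% of 30660 genes compared, with a median of 6.03 (-0.29 over all genes). The Pth1r excess was under 2-fold on the unscaled deposited values (0.63) and with scaling on spike-in probes. With detection set by the ERCC control probes, the MEF values of Plek2, Peli3, Hkdc1 and Stra6 all fell below that level, and the differences became lower bounds of 4.98, 6.07, 4.80 and 1.97.

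The comparison of iPS-OSH with ESC does not involve the iPS-J array, although both arrays were used to choose the genes as low. In it, 4 of 7 genes were at least 2-fold lower in iPS-OSH and 0 higher, against 27.6% lower and 8.86% higher of 30567 genes. The 4 were Aqp8 at -2.45 log2 units, Hkdc1 at -2.01, Srgn at -1.87 and Stra6 at -1.17. Plek2 was at -0.98, just under 2-fold, Peli3 at -0.20 and Pth1r at 0.06, the last within the technical SD of 0.18. Stra6 lay at 0.00 with ERCC-based detection and under 2-fold under 4 of 9 alternatives, and the median of the 7 genes ran from -1.36 to -0.56 over the alternatives.

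In the order of the levels, iPS-J was first for all 7 genes. ESC was second for Stra6, Aqp8, Hkdc1, Peli3, Plek2 and Srgn, and MEF was second for Pth1r. MEF was last for Hkdc1, Peli3, Plek2 and Srgn, while iPS-OSH was last for Stra6 and Aqp8 and ESC for Pth1r. Neighbours in this order stood close for Pth1r in iPS-OSH and ESC (0.06 log2 units), Peli3 in ESC and iPS-OSH (0.20), Stra6 in MEF and iPS-OSH (0.22) and Aqp8 in MEF and iPS-OSH (0.24). The first lay within the technical SD of its pair of arrays and the rest slightly beyond theirs, so their order is not settled. All other neighbours in the order were at least 0.69 apart, the gap of Srgn between iPS-OSH and MEF.

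**Figure D2:**
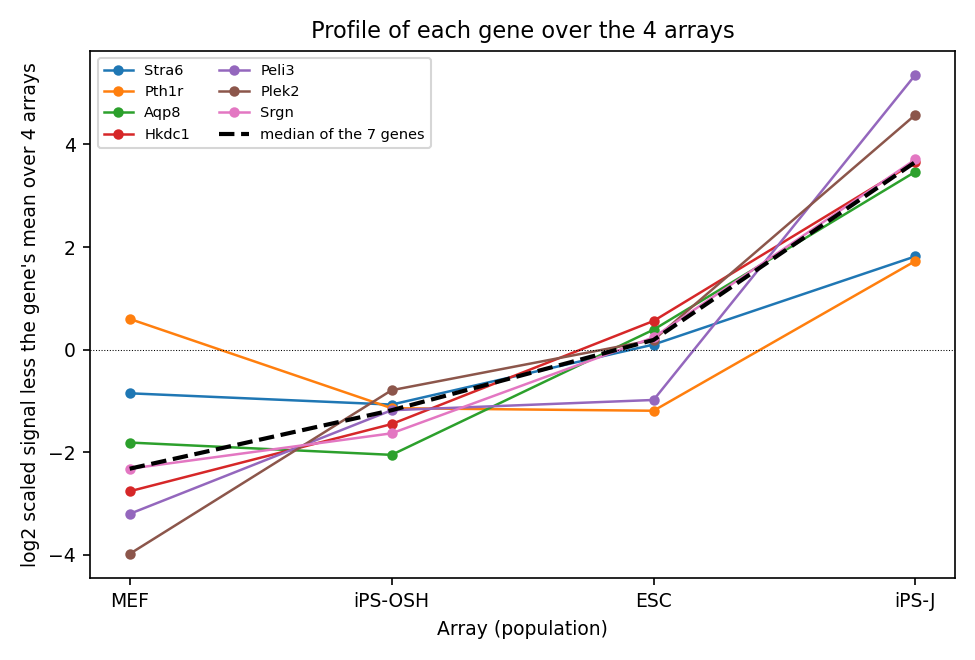
Scaled log2 signal of each gene less its own mean over the 4 arrays, with the dashed line at the median of the 7 genes; lines only join the points of 1 gene, and the arrays have no order. Srgn and Hkdc1 run closest to the median line, at distances of 0.45 and 0.63, and Pth1r, which is high in MEF, runs farthest from it, at 3.76.

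Set against the median profile over the 4 arrays, Srgn lay at a Euclidean distance of 0.45 log2 units, Hkdc1 at 0.63 and Aqp8 at 1.05. Plek2 was at 1.94, Peli3 at 2.25, Stra6 at 2.36 and Pth1r at 3.76. Srgn, Hkdc1 and Aqp8 thus lay nearest to this median. The median is made of the genes' own values, among them those that chose the genes. Nearness to it is therefore a description, and nothing is read from it. Peli3 differed by its high iPS-J and its low ESC value (5.36 and -0.98 from its own mean, beside 3.66 and 0.19 in the median profile), Plek2 by its low MEF value, Stra6 by its narrow range and Pth1r by its high MEF value.

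To place the genes among all others, the 25494 genes well above background on iPS-J were ordered by the smaller of their excesses over iPS-OSH and ESC. Peli3 came first with 6.34 log2 units. Plek2 was at place 7 with 4.39, Srgn at 26 with 3.47, Hkdc1 at 41 with 3.09, Aqp8 at 42 with 3.07, Pth1r at 54 with 2.87 and Stra6 at 204 with 1.71. The list of 7 is therefore not the head of this order, in which 598 genes had an excess of at least 2-fold and 42 of at least 8-fold. The highest genes with a common symbol that are not among the 7 were Vmn1r205 at 4.55 and Olfr527 at 3.74, a vomeronasal and an olfactory receptor, Sox7 at 3.85 and Gata4 at 3.83, transcription factors of the endoderm, and Kdm4dl, a histone demethylase-like gene, at 3.75. The values of Vmn1r205 and Kdm4dl are lower bounds. With ERCC-based detection the excess over ESC came to 1.61 for Vmn1r205, 1.93 for Olfr527 and 0.77, under 2-fold, for Kdm4dl. Next to Stra6 stood Mttp, the microsomal lipid transfer protein, at 1.73 and the cell cycle inhibitor Cdkn1c at 1.68, both outside the set. Next to Srgn stood Dok2 at 3.47 and Htr4 at 3.45, next to Hkdc1 Vmn1r114 at 3.10, next to Aqp8 Pdzd3, and on either side of Pth1r Kcnq1 at 2.89 and Bend5 at 2.81. Htr4, Vmn1r114 and Kcnq1 were again lower bounds, and with ERCC-based detection their excess over ESC came to 0.46, 0.11 and 0.05.

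**Figure D3:**
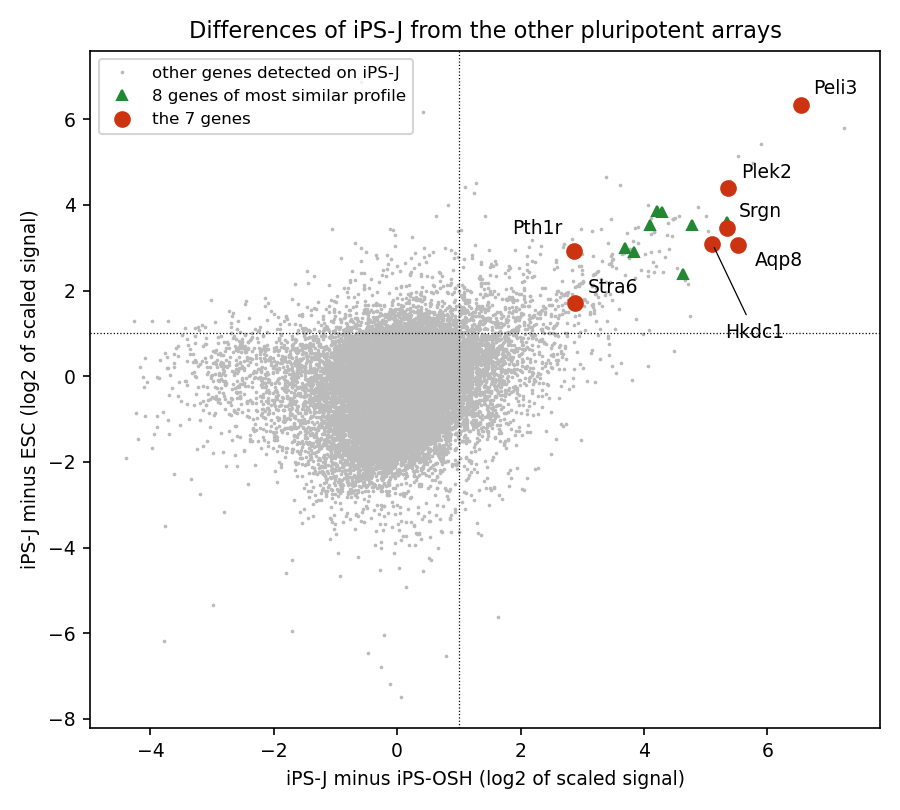
Difference of iPS-J from iPS-OSH (x axis) and from ESC (y axis), in log2 of the scaled signal, for 25494 genes well above background on iPS-J, with lower bounds drawn at their value and dotted lines at 2-fold. The 7 genes (circles) lie to the upper right, with Peli3 at 6.54 and 6.34 and Stra6 nearest the main cloud at 2.88 and 1.71.

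The genes whose profile lay nearest to the median of the 7 over the 4 arrays were Habp2 at a distance of 0.52 log2 units, Cubn at 0.56, Adora1 at 0.65, Gata4 at 0.70, Sox7 at 0.76, Pdzd3 at 0.83, Kcnq1 at 0.89 and Nxf7 at 0.98. Likeness was the Euclidean distance between the scaled log2 values, each less the gene's mean, over 4 arrays. Habp2, a plasma serine protease, had signals of 131 in iPS-OSH, 2850 in iPS-J, 258.7 in ESC and 43.6 in MEF. Cubn, the endocytic receptor cubilin of the yolk sac and kidney, had 1230, 39890, 3471 and 574 in the same order. Both therefore had the order of Srgn and Hkdc1, with iPS-J far above ESC and ESC above iPS-OSH. Gata4 had 718, 11140, 823 and 301.

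For single genes, Cubn was the nearest other gene to Hkdc1 (0.36), to Srgn (0.49) and to Peli3 (2.02). Amn, which encodes the membrane partner of cubilin, was nearest to Plek2 (0.91). Kcnq1, a potassium channel, was nearest to Aqp8 (0.37), although its values on the other 3 arrays were not well above background. Dab2, an endocytic adaptor, was nearest to Pth1r (0.37), with signals of 1213 in iPS-OSH, 5699 in iPS-J, 911 in ESC and 3263 in MEF. Like Pth1r, it was high in both iPS-J and MEF by its brighter probe. The other Dab2 probe was not well above background on any array. Crb2, a cell polarity protein, was nearest to Stra6 (0.15), with 102.6, 665, 200.5 and 129 in the same order of arrays.

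The retinoid pathway list (carriers, receptors and enzymes of retinol and retinoic acid) held 19 other genes that could be compared between iPS-J and iPS-OSH. Of these, 3 were at least 2-fold higher in iPS-J and 4 lower, with a median of -0.27, against 7.36% and 8.91% of all genes. Cyp26a1, the enzyme that degrades retinoic acid, had signals of 173 in iPS-OSH, 902 in iPS-J, 607 in ESC and a MEF value below the detection level. It was 2.72 log2 units higher in iPS-J than in iPS-OSH and 0.65 higher than in ESC. Ttr, the plasma carrier that binds the retinol-binding protein, was 2.07 and 0.22 higher in the same comparisons, at a signal of 120.3 in iPS-J, and under 2-fold above iPS-OSH (0.34) under 1 of 9 alternatives. Crabp1, a cytosolic retinoic acid carrier, was lower than in iPS-OSH (-1.99) and within 2-fold of ESC (-0.60). Against ESC, 1 of 19 was higher and 5 lower (median 0.05), where 5.5% and 25.9% of all genes were. These shares of all genes stand beside the counts of every list below in the same comparisons, and a count near them is not read as a result.

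Of 17 other genes of the parathyroid hormone receptor pathway compared with iPS-OSH, 2 were at least 2-fold higher and 2 lower (median -0.28), and of 18 compared with ESC, 2 were higher and 4 lower (median -0.04). Ramp2, an accessory membrane protein of class B receptors, had signals of 1039 in iPS-OSH, 7680 in iPS-J, 1951 in ESC and 1079 in MEF. It was 3.22, 2.05 and 3.34 log2 units higher in iPS-J than in iPS-OSH, ESC and MEF. The hormone gene Pth itself was not well above background on any array. Pthlh, the related ligand, was below that level in iPS-J and had signals of 66.5 in iPS-OSH, 140.6 in ESC and 463 in MEF, its highest signal. The adenylyl cyclases Adcy2 and Adcy6, which act downstream of the receptor, were lower than in iPS-OSH, at -1.98 and -1.13, and Adcy2 was under 2-fold lower under 1 of 9 alternatives. Against ESC, Adcy2 was at -2.21 and Adcy6 at 0.02.

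Among the other aquaporins, 1 of 9 compared was at least 2-fold higher than in iPS-OSH and 2 lower, against 7.36% and 8.91% of all genes. Against ESC, 0 of 10 were higher and 4 lower, where 5.5% and 25.9% of all genes were. Aqp6 was 2.30 log2 units above iPS-OSH and -0.15 from ESC by its brighter probe, the former under 2-fold (0.73) under 1 of 9 alternatives. Its dimmer probe was not well above background in iPS-J and lower than in iPS-OSH (a bound of -0.65), so the 2 probes disagree. Aqp1 (-2.41) and Aqp5 (-1.17, or -0.92 under 1 of 9 alternatives) were lower than in iPS-OSH, and Mip, Aqp2, Aqp3, Aqp4, Aqp7 and Aqp11 were within 2-fold of it. Against ESC, Aqp1 was at -0.80 and Aqp5 at 0.26. Aqp3 had signals of 6625 in iPS-OSH, 3871 in iPS-J, 11620 in ESC and 89.3 in MEF, a profile with iPS-J lowest among the pluripotent arrays. Aqp9 was not well above background on any array. Aqp8, which was chosen by these differences, was the only aquaporin at least 2-fold higher in iPS-J than in both iPS-OSH and ESC.

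Of the relatives of Hkdc1, Hk2 was 1.11 log2 units higher in iPS-J than in iPS-OSH, Hk1 was within 2-fold at 0.28, and Hk3 was lower, with a bound of -1.17 since it was not well above background in iPS-J. Hk2 had signals of 11840 in iPS-OSH, 20290 in iPS-J, 11640 in ESC and 7045 in MEF. Hk2 was under 2-fold above ESC (0.88). The excess of Hk2 over iPS-OSH was under 2-fold under 2 of 9 alternatives, and the Hk3 bound under 2 of 7.

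Among 18 other genes of the Pellino and Toll-like receptor relay, 0 were at least 2-fold higher than in iPS-OSH and 4 lower (median -0.36). Against ESC, 1 was higher and 2 lower (median 0.20). The family members Peli1 and Peli2 were within 2-fold of iPS-OSH, at 0.71 and -0.62, and of ESC, at -0.37 and -0.76. Peli1 had signals of 4170 in iPS-OSH, 5416 in iPS-J, 7395 in ESC and 5844 in MEF, and iPS-OSH lay more than 2-fold below ESC (-1.08). Irf7, an interferon regulatory factor, was lower than in iPS-OSH with a bound of -3.19, and the kinases Irak3 and Ripk1 were lower at -1.43 and -1.04, the latter under 2-fold under 2 of 9 alternatives. Against ESC, Irak3 was at 0.11 and Ripk1 at 0.91. Irf7 had a bound of -1.05 there, past 2-fold under 4 of 7 alternatives.

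Plek, the founding pleckstrin, went the other way from Plek2, with signals of 282.6 in iPS-OSH, 60.8 in iPS-J, 276.8 in ESC and 706 in MEF. The difference of iPS-J was -1.88 log2 units from iPS-OSH, -2.11 from ESC and -3.03 from MEF. Of 18 other genes that build or bind chondroitin sulfate proteoglycans, 0 were at least 2-fold higher and 4 lower in iPS-J than in iPS-OSH (median -0.39), and 1 was higher and 2 lower than in ESC (median -0.07). Cd44, a cell surface receptor that binds serglycin, had a signal of 2212 in iPS-J against 27150 in iPS-OSH, a difference of -3.28. The chain-building enzymes Csgalnact1 (-2.60) and Chpf2 (-1.31) were lower than in iPS-OSH too. Against ESC, Cd44 was at 0.78, Csgalnact1 at -0.36 and Chpf2 at 1.56, past 2-fold under 8 of 9 alternatives. Within each of these families and pathways the gene of the set had the largest excess over iPS-OSH and over ESC, with the exceptions of Ramp2 in the hormone receptor pathway (over iPS-OSH) and of the retinal reductase Dhrs3 in the retinoid pathway (2.25 over ESC). Since this excess chose the genes of the set, their place in the families is a description and nothing is read from it.

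Markers of some other cell types were also higher in iPS-J. Of 10 regulators of the primitive endoderm, 9 were at least 2-fold higher in iPS-J than in iPS-OSH (median 3.62) and 9 than in ESC (median 2.72), with 0 lower in either, and their summed scaled level was 34.8 in iPS-J against 4.98 in iPS-OSH, 4.78 in ESC and 9.61 in MEF. All 10 were well above background in iPS-J. Gata4 was 4.29 and 3.83 log2 units above iPS-OSH and ESC, Sox7 4.21 and 3.85, Foxa2 3.95 and 2.49, and Hnf4a 3.87 and 1.34. Gata4 and Sox7 are also among the genes of largest excess and of most similar profile above. Those orders use the same array values as the differences given here, so this adds no separate evidence.

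Of the visceral endoderm markers, 10 of 15 compared were at least 2-fold higher in iPS-J than in iPS-OSH and 0 lower (median 1.93), and 9 of 16 were higher and 3 lower than in ESC (median 1.22). Their summed level was 187 in iPS-J, 45.6 in iPS-OSH, 54.1 in ESC and 7.47 in MEF, and 14 of 18 were well above background in iPS-J. Apoe, with a signal of 129500 in iPS-J, was the brightest marker of the list on every array and weighs most in these sums. Cubn was 5.35 and 3.60 log2 units higher, Amn 4.38 and 3.29, and the endocytic receptor Lrp2 3.31 and 2.28. A dimmer Lrp2 probe lay at least 2.93 above iPS-OSH and only 0.83, under 2-fold, above ESC. Those lower than in ESC were Rbp4 (-1.33), Apob (-1.06) and Cer1 (a bound of -1.43). Afp and Alb, which define the mature visceral endoderm, were not well above background in iPS-J, at signals of 8.7 and 10.6. Parietal endoderm markers were mixed, with 5 of 13 higher and 4 lower than in iPS-OSH, led by Lama1 (4.06) and Thbd (-3.22), and with 7 higher and 0 lower than in ESC. Their summed level was 473 in iPS-J, 299 in iPS-OSH, 161 in ESC and 538 in MEF. The part of such cells in the signal of the 7 genes was not tested, and in bulk RNA more cells of a type and more RNA per cell cannot be told apart.

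Other lists were mixed or lower. Over all genes, 7.36% were at least 2-fold higher and 8.91% lower than in iPS-OSH, and 5.5% higher and 25.9% lower than in ESC. Counts near these shares are not read as a result. Of 13 blood and macrophage markers, 0 were at least 2-fold higher and 6 lower than in iPS-OSH, and 2 (Cd68 at 1.21 and Laptm5 at 1.39) were higher and 3 lower than in ESC, with a summed level of 18.4 in iPS-J against 28.4 in iPS-OSH, 13 in ESC and 47.8 in MEF. Lyz2, Tyrobp, Lyz1 and Fcer1g were lower than in iPS-OSH, at -3.10, -2.73, -2.51 and -1.74. Against ESC they were at -0.68, 0.26, 0.23 and -1.19 in the same order. Of 9 intestine and liver epithelium markers, 2 were higher and 2 lower than in iPS-OSH, and 2 higher and 4 lower than in ESC, with summed levels of 3.33 in iPS-J, 5.27 in iPS-OSH, 6.19 in ESC and 1.87 in MEF. Vil1 (1.68) was higher and Krt20 (-1.23) lower than in iPS-OSH, and Fabp1 and Alb were not well above background on any array. Of 10 trophoblast markers, 4 were higher and 1 lower than in iPS-OSH (median 0.45), namely Plac1 (2.12), Krt7 (1.58), Hand1 (1.47) and Ascl2 (1.01) against Gata3 (-1.17), and of 11 compared with ESC, 0 were higher and 2 lower (median -0.37). They summed to 14.1 in iPS-J, 12.4 in iPS-OSH, 15.7 in ESC and 2.29 in MEF.

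The fibroblast markers set iPS-OSH apart from the other pluripotent arrays. All 12 were at least 2-fold lower in iPS-J than in iPS-OSH (median -2.74), while 0 of 12 were 2-fold apart between iPS-J and ESC. Their summed level was 314 in iPS-OSH, 56.3 in iPS-J, 45.2 in ESC and 1060 in MEF. Of the 7 genes, Pth1r alone had MEF as its second-highest array. The part of fibroblast RNA in the iPS-OSH values of the 7 genes was not tested.

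Hkdc1 and Srgn lie near each other on chromosome 10, 3 protein-coding genes apart in the RefSeq order, with Supv3l1 and Vps26a between them. Supv3l1, a mitochondrial helicase, was 0.09 log2 units above iPS-OSH and 0.63 above ESC, and Vps26a, a retromer subunit, 0.55 and 0.58. Hk1, directly on the other side of Hkdc1, was at 0.28 and 0.35. These 3 genes were within 2-fold of iPS-OSH and ESC, while Supv3l1 was 1.40 above MEF. Tacr2, a tachykinin receptor on the far side of Hk1, was at -1.04 and 1.05. Over the 7 genes, taking 5 protein-coding genes on each side, 3 of 58 neighbours compared (5.17%) were at least 2-fold higher than in iPS-OSH and 4 of 58 (6.9%) than in ESC, near the 7.36% and 5.5% of all genes. The higher neighbours over iPS-OSH were Cyp11a1 (2.16) and Islr2 (1.81), near Stra6, and Plekhh1 (1.75), near Plek2. The neighbours were looked at after the values had been seen.

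**Figure D4:**
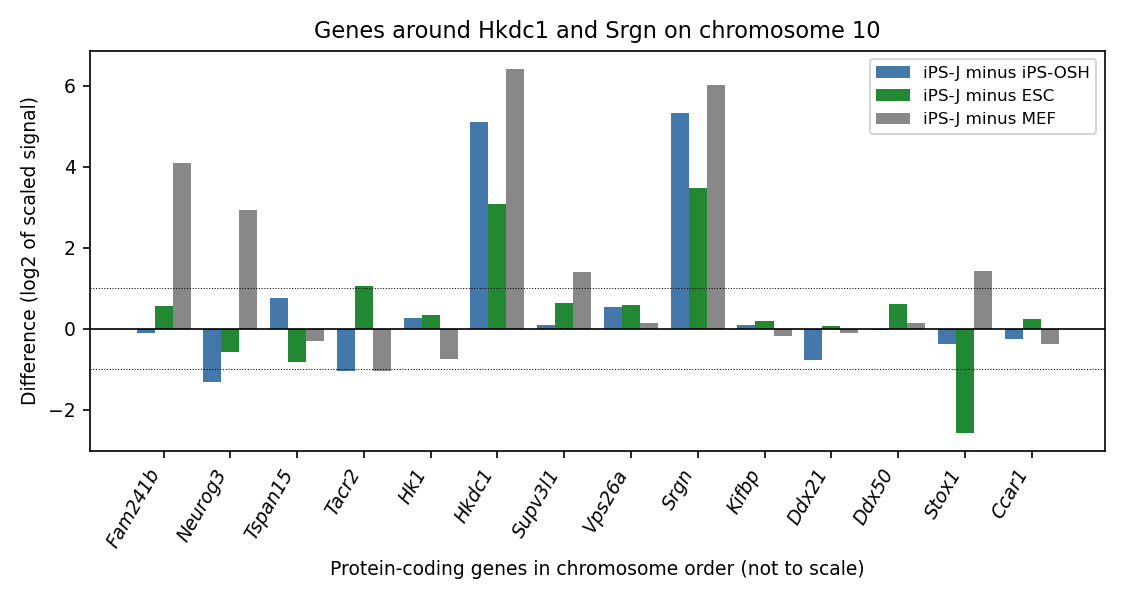
Difference of iPS-J from iPS-OSH, ESC and MEF in log2 of the scaled signal for protein-coding genes in chromosome order around Hkdc1 and Srgn, evenly spaced and not to scale, with dotted lines at 2-fold. In each comparison the tallest bars are those of Hkdc1 (5.11, 3.09 and 6.42) and Srgn (5.34, 3.47 and 6.03), and Supv3l1 and Vps26a between them stay within 2-fold of iPS-OSH and ESC. Against MEF, Fam241b (4.10) and Neurog3 (2.94) also have tall bars.

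The promoters of the pair and of Peli3, the gene with the largest excess, are printed because these members are the ones high together or by the most. They are the 250 bases before the start in RefSeq (GRCm38.p6), 5′ to 3′ along the transcript. Capitals mark matches to 4 motifs searched on both strands: AGATAA (bound by GATA factors), AGGTCA (a nuclear receptor site), TATAAA (read by the TATA-binding protein) and GGGCGG (bound by Sp1-like factors).
Hkdc1 promoter, chr10:62422458-62422707, minus strand: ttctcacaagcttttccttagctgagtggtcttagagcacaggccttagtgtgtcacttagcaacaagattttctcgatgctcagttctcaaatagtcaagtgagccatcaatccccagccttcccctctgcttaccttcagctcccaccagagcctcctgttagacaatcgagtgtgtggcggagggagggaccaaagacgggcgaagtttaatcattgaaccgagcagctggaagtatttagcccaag
Srgn promoter, chr10:62527446-62527695, minus strand: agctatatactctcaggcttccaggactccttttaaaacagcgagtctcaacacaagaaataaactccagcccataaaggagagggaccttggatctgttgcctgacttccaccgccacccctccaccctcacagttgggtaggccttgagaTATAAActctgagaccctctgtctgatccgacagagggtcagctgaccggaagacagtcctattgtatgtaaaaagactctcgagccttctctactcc
Peli3 promoter, chr19:4943128-4943377, minus strand: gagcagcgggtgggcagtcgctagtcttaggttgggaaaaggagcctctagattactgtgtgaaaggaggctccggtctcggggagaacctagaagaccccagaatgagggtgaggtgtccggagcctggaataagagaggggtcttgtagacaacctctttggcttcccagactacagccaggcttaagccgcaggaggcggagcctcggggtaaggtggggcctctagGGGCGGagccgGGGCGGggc

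The Hkdc1 window held none of the 4 motifs, the printed Srgn window TATAAA at 98 bases before the start, and the printed Peli3 window GGGCGG at 20 and 9 bases before the start. Srgn and Peli3 have 2 windows each, of which 1 is printed. The other Srgn window held none of the motifs. The other Peli3 window overlaps the printed window and holds the same GGGCGG letters, at 55 and 44 bases, so these are counted in both windows below. All 7 genes matched RefSeq entries, with 14 windows since some have several starts. AGATAA was in 1 of the 14 windows, of Stra6, and in 9.99% of 32851 windows of all genes. AGGTCA was in 0 of 14 and 14% of all. TATAAA was in 1 of 14 and 12.4% of all, and GGGCGG in 8 of 14 windows, from Peli3, Plek2, Pth1r and Stra6, and 32.7% of all. The printed Hkdc1, Srgn and Peli3 windows had a GC content of 49.6%, 49.6% and 61.2%, beside a median of 52.4% over all windows. A match is a description of the letters in these windows and not a site in use.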

How the data were processed

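Cy3-labelled RNA of the 4 populations was hybridized to 1-colour Agilent arrays, per the labels' protocols, 1 array each. Spot intensity in the deposited scanner output had been background-subtracted on each array by Agilent Feature Extraction 10.5.1.1, per the file headers. The deposited value table holds the same intensity, rounded. Here the log2 processed signal was scaled by subtracting the log2 75th percentile of each array's spots that are not controls, uneven or outlying spots were left out, and spots of a probe were averaged. A gene was represented by its brightest probe and compared where that probe was detected on either array of a pair, with a lower bound where on only 1. Genes were counted at a 2-fold difference, a rule of size, as 1 array per group allows no test. Gene symbols came from RefSeq tables for 31238 probes, by accession, symbol or synonym.

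The 7 genes and the 15 gene lists were chosen with earlier results of these data known, so none is independent evidence. Named were the 7 genes, up to 4 genes of each list with the largest difference from iPS-OSH, relatives of the 7, the 8 genes nearest to their median profile, the nearest to each, and the first 5 others and the neighbours of each in the order of excess. Other genes named (the hormone ligands, Dhrs3, Utf1, Zfp42, Klf2, markers at background, and genes beside the 7 on the chromosome) were chosen after their values were seen. Some items that this rule names are not reported here.

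A total of 10 alternatives were tried. The background was corrected by normexp instead (limma 3.58.1, offset 50). Arrays were quantile normalized, scaled on 10 spike-in probes, or scaled to the 75th percentile of probes that every array detected. Detection was required on both arrays of a pair, set by the 95th percentile of ERCC probes, or dropped. A gene's probes were replaced by their median, the scanner output by the deposited table without scaling, and the threshold by 4-fold. The script was tested on simulated data. The number of arrays limits the precision.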

Additional observations from a re-analysis of the deposited data

Results flagged for a closer look

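Pth1r differed in direction against MEF between the pluripotent arrays. It was 1.13 log2 units higher in iPS-J than in MEF, but lower in iPS-OSH (-1.74) and in ESC (-1.79) than in MEF. Each population had 1 array and all 3 differences share the MEF array, so the difference between them was not tested. On the unscaled deposited values the excess of iPS-J over MEF was 0.63, the same direction but under 2-fold.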

How the results depend on the processing

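No paired analysis was possible because each population has 1 array and no result comes from a test, and no replicate could be left out for the same reason. Under 10 alternatives, 224 values of the 7 genes' differences past 2-fold were computed again and 0 changed sign. Of 27 values for differences under 2-fold, 5 did, all between iPS-OSH and ESC: Peli3 ran from -0.39 to 0.43 and Pth1r from -0.13 to 0.43. All 126 of iPS-J against iPS-OSH or ESC were still at least 2-fold higher, with Stra6 over ESC the smallest at 1.42 (normexp). Of the 7 genes, 6 were past a 4-fold threshold against ESC, beside 274 of 29583 genes that were 4-fold higher in iPS-J. Against MEF, 6 of 7 were at least 2-fold higher with spike-in scaling and on the unscaled deposited values. Over all genes, 3783 and 3161 of 30660 were as much higher in these settings. Where detection on both arrays was asked for, Plek2 was not compared with MEF. All 6 genes compared were then at least 2-fold higher, beside 4244 of 24756 genes. Between iPS-OSH and ESC the count of 4 became 2 at 4-fold, where 1687 of 30567 genes were as much lower in iPS-OSH. For the 76 other genes named by rule, 0 of 1462 values for differences past 2-fold changed sign and 31 of 543 for smaller ones, and of 600 list counts 517 were within 1.5 times.

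Counts over all genes moved more. Those 2-fold apart between iPS-J and iPS-OSH numbered 4756, but 2966 with normexp and 1137 at 4-fold. Between iPS-J and ESC they numbered 9284, but 4423 with normexp, 6108 with quantile normalization, 4710 with ERCC-based detection and 1796 at 4-fold. Between iPS-J and MEF they numbered 13022, but 8563 with normexp and 4524 at 4-fold. Between iPS-OSH and ESC they numbered 11140, but 6159 with ERCC-based detection and 2472 at 4-fold. The cause was not tested, except that a higher threshold and stricter detection leave fewer genes. The share of these genes that were higher in iPS-J than in iPS-OSH was 45.2%, but 30.4% with spike-in scaling and 21.2% on the deposited table. For iPS-J over ESC it was 17.5%, but 45.6% after quantile normalization, 29.4% after spike-in scaling and 10.1% with the percentile over probes detected on all arrays. For iPS-J over MEF it was 38.2%, but 50.8% with normexp, 25.5% with spike-in scaling, 19.3% on the deposited table and 48.4% at 4-fold. For iPS-OSH over ESC it was 24.3%, but 45.2%, 47.9% and 39.4% with quantile normalization, spike-in scaling and the deposited table.

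Spike-in scaling moved the median difference of all genes from 0.00 to -0.18 against iPS-OSH, from -0.21 to -0.03 against ESC and from -0.29 to -0.60 against MEF. Dim values limit the bounds, such as those of Plek2 in MEF.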

Other observations

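Among genes at least 4-fold higher in iPS-J than in both iPS-OSH and ESC, 28 other probes of the same genes could be compared, and 11 of them (39.3%) were at least 2-fold higher in both comparisons. Of the 7 genes, Aqp8 alone has such a probe, and it was among those that were. The other 6 genes rest on 1 probe each. These counts were made after the values had been seen.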
